A study of Mus musculus with 15 samples.

Results

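The Maturation Stage, 14 days after muscle injury, was compared with the Proliferation Stage, 4 days after injury, in RNA sequencing of mouse tibialis anterior (TA) muscle. The comparison holds 8 of the 15 libraries of the series, 4 of each stage, and was taken over every gene that reached 0.5 FPKM (fragments per kilobase of exon, scaled to library size) in at least 3 of the 8 libraries, which 13413 of 56748 genes did. All 8 came from male C57BL/6 mice, 8 weeks old when obtained, whose TA had received 50 µL of cardiotoxin (CTX) at 0.1 mg/mL in saline with meloxicam. CTX is a snake venom toxin that lyses muscle fibers and spares most of the resident stem cells. The animals also received stable isotope label. The groups differ by the time since injection, and no genotype, drug or diet sets them apart in the labels. The labels call the material bulk tissue, while the protocol describes RNA from purified single muscle fibers with the cells attached to them. Removal of CD45+ leukocytes is described for the protein and DNA work and not for the RNA. Libraries are named P1 to P4 (Proliferation Stage) and M1 to M4 (Maturation Stage) after the subject numbers in the labels.

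Skeletal muscle rebuilds itself after CTX from satellite cells, the stem cells that lie on the fibers. Satellite cells divide, exit the cell cycle under the control of the myogenic regulatory factors, fuse into new myotubes that first express embryonic forms of the contractile proteins, and then exchange these for adult forms as the fibers grow and regain their nerve contact. Macrophages clear the debris and fibroblast-like cells lay down a temporary matrix while this goes on.

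Of the genes tested, 1180 (8.80%) were higher and 2501 (18.6%) were lower at the Maturation Stage, 3681 in all (27.4%), by limma on log2(FPKM + 0.5) at an adjusted p under 0.05. At least 4-fold changes were called for 115 genes that rose and 588 that fell. At least 16-fold changes were called for 2 and 66. The median log2 fold change was -0.055 over all genes tested, 1.105 over those called higher and -1.37 over those called lower. Fold changes are on the log2(FPKM + 0.5) scale, which understates the change of low genes, and errors beside them are standard errors with 4 libraries a stage. Counts for a gene list refer to the members that passed the filter, and a gene present at 1 stage only passed through that stage.

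The 8 libraries were not equally alike. Between 5198453 and 7209362 fragments in genes stood behind the Proliferation Stage libraries and between 1479320 and 5544576 behind those of the Maturation Stage. P1 and P3 held less of the adult muscle transcripts than P2 and P4. The muscle creatine kinase Ckm was at 119, 3009, 675 and 1571 FPKM at the Proliferation Stage and 4601, 3969, 3286 and 3856 FPKM at the Maturation Stage. Mitochondrially encoded genes took 5.09%, 19.98%, 9.28% and 18.9% of FPKM in P1 to P4 and 18.95% to 27.6% in M1 to M4. P1 also held the most leukocyte transcripts, with sums over the leukocyte list of 640.5, 259, 425 and 271 FPKM at the Proliferation Stage and 11.3, 9.33, 19.6 and 14.6 FPKM at the Maturation Stage, and the part of this in the other results was not tested. The number of genes called higher was 2345 without P2, 259 without P3, 430 without M1, 519 without M2 and 488 without M3 or M4, against 803 and 999 without P1 and P4. No overlap between the 4 and 4 libraries, in either direction, was found for 32.3% of genes. The number called lower was 1364 without P3 and 1759 to 3211 without any other library. The scale of FPKM also differed. With every library set to the same FPKM total the median of all genes moved from -0.055 to -0.731 and the counts to 250 higher (1.86%) and 5062 lower (37.7%). With FPKM divided by each library's own fragments in genes the median was -0.575 and the counts were 362 and 4589 (34.2%). Quantile normalization, which makes the distributions of all libraries equal, gave 1697 and 1868. The direction of a change smaller than these shifts depends on the scaling. In these bulk libraries fewer cells of a type and less RNA per cell cannot be told apart.

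Transcripts of the commitment and fusion of muscle precursors were much lower at the Maturation Stage, while Myf6, which adult fibers keep, overlapped between the stages. Myogenin (Myog), the regulator that drives the exit into differentiation, stood at 201.1, 76.1, 109 and 72.7 FPKM at the Proliferation Stage and 4.65, 4.85, 9.50 and 7.62 FPKM at the Maturation Stage. The stages did not overlap, and the log2 fold change was -3.94 ± 0.36 (adjusted p = 0.000145). Myod1, which commits precursors to the muscle lineage, was at 89.5, 53.0, 68.6 and 37.6 FPKM at the Proliferation Stage and 14.6, 21.8, 13.6 and 22.6 FPKM at the Maturation Stage. Its log2 fold change was -1.71 ± 0.30 (adjusted p = 0.00435). The early factor Myf5 was lower too (log2 fold change -1.74 ± 0.29, adjusted p = 0.00354), as was the repressor Msc (log2 fold change -1.69 ± 0.29, adjusted p = 0.00417), also named musculin. Myf6, the member of the family that adult fibers express most, was at 14.4, 67.4, 82.7 and 74.8 FPKM at the Proliferation Stage and 118, 45.3, 84.5 and 69.9 FPKM at the Maturation Stage, with overlapping stages and no call (adjusted p = 0.433). Of 17 myogenic regulators tested, 0 rose and 6 fell (35.3% against 18.6% of all genes). The median of this list was -0.25, against -0.055 for all genes, and the count of those that fell was between 6 and 7 when any 1 library was left out.

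Most satellite cell genes were lower as well. Pax7, the transcription factor that marks satellite cells, was at 3.77, 1.14, 2.53 and 1.92 FPKM at the Proliferation Stage and 0.791, 0.124, 0.262 and 0.536 FPKM at the Maturation Stage (log2 fold change -1.58 ± 0.34, adjusted p = 0.0104). The values are low, and the lowest Proliferation Stage library was above the highest of the Maturation Stage. Ncam1, an adhesion molecule of activated precursors and of denervated fibers, was at 26.7, 10.4, 20.2 and 11.98 FPKM at the Proliferation Stage and 0.602, 0.418, 0.886 and 0.748 FPKM at the Maturation Stage (log2 fold change -3.86 ± 0.30, adjusted p = 6.98e-05). The receptor Fgfr4, expressed by differentiating precursors, had a log2 fold change of -2.58 ± 0.47 (adjusted p = 0.00501), Vcam1 of -1.89 ± 0.30 (adjusted p = 0.00256) and the Notch target Heyl of -1.66 ± 0.32 (adjusted p = 0.00667). Chodl was the only member called higher, at 0.277, 1.03, 1.15 and 1.15 FPKM at the Proliferation Stage and 2.53, 2.64, 3.01 and 2.43 FPKM at the Maturation Stage (log2 fold change 1.23 ± 0.26, adjusted p = 0.0104). In all, 1 of 21 tested rose and 13 fell (61.9% against 18.6% of all genes), with a median of -0.93. The number that fell was 8 without P3. Myog, Myod1, Myf5, Msc, Pax7, Ncam1, Fgfr4, Vcam1, Heyl and Chodl kept their calls when any 1 library was left out.

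The proteins that merge myoblasts into fibers showed some of the steepest falls. Myomaker (Mymk), the membrane protein required for fusion, was at 205, 168, 189.5 and 117 FPKM at the Proliferation Stage and 0, 1.92, 3.30 and 1.30 FPKM at the Maturation Stage (log2 fold change -6.62 ± 0.54, adjusted p = 7.89e-05). Its partner myomixer (Mymx) was at 59.9, 32.4, 22.0 and 20.9 FPKM at the Proliferation Stage and 0, 0.705, 2.62 and 0.573 FPKM at the Maturation Stage (log2 fold change -4.71 ± 0.53, adjusted p = 0.00046). M1 was listed at 0 for both. Uninjected muscle was listed at 0 for both as well, and at the Differentiation Stage, 7 days after injury, the means were 28.1 ± 27.3 and 8.17 ± 8.25 FPKM (SD, n = 4). The cell cycle inhibitors Cdkn1a (p21) and Cdkn1c (p57), which hold new myocytes out of the cycle, had log2 fold changes of -2.05 ± 0.26 (adjusted p = 0.000846) and -2.30 ± 0.28 (adjusted p = 0.000652). Over the whole list of fusion and new-myocyte genes 0 of 23 rose and 14 fell (60.9% against 18.6% of all genes, median -1.99). The number that fell was between 13 and 15 when any 1 library was left out.

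Transcripts of embryonic contractile proteins were far lower at the Maturation Stage. Myh3, the embryonic myosin heavy chain and the largest fall of any gene named here, stood at 367, 301, 509 and 318 FPKM at the Proliferation Stage and 0.670, 1.08, 1.77 and 1.72 FPKM at the Maturation Stage. Its log2 fold change was -7.71 ± 0.27 (adjusted p = 1.36e-06). The neonatal myosin Myh8 was at 73.9, 78.0, 178 and 101 FPKM at the Proliferation Stage and 1.48, 0.738, 4.14 and 2.35 FPKM at the Maturation Stage (log2 fold change -5.41 ± 0.42, adjusted p = 7.08e-05). The embryonic light chain Myl4 averaged 189 ± 57.6 FPKM at the Proliferation Stage and 4.53 ± 2.34 FPKM at the Maturation Stage (SD, n = 4), with a log2 fold change of -5.32 ± 0.36 (adjusted p = 4.08e-05). Slow and cardiac troponins moved alike. Tnni1, the slow inhibitory subunit, was at 149.7, 157, 282 and 166 FPKM at the Proliferation Stage and 0.644, 1.61, 2.88 and 2.13 FPKM at the Maturation Stage (log2 fold change -6.41 ± 0.35, adjusted p = 2.13e-05). Tnnc1, the slow and cardiac calcium-binding subunit, was at 197, 138, 196 and 140.3 FPKM at the Proliferation Stage and 1.67, 2.09, 5.53 and 2.45 FPKM at the Maturation Stage (log2 fold change -5.71 ± 0.32, adjusted p = 2.39e-05). The tropomyosin-binding subunits Tnnt1 and Tnnt2 had log2 fold changes of -5.44 ± 0.34 (adjusted p = 2.85e-05) and -5.21 ± 0.21 (adjusted p = 3.56e-06). For each of these genes all 4 Proliferation Stage libraries were far above all 4 Maturation Stage libraries. Not all early isoforms fell. Cardiac actin (Actc1) was at 1029.5, 1537, 3976 and 2248 FPKM at the Proliferation Stage and 3167, 902, 2470.2 and 1329.8 FPKM at the Maturation Stage, with overlapping stages (adjusted p = 0.87), against 278 ± 157 FPKM in uninjected muscle (SD, n = 3). The myosin-binding protein Mybph overlapped as well, at 101, 112, 91.9 and 76.0 FPKM at the Proliferation Stage and 246, 51.3, 112 and 56.6 FPKM at the Maturation Stage (adjusted p = 0.994). Myh7, the slow myosin of adult muscle, was below the filter at both stages (0.164 to 0.438 FPKM at the Proliferation Stage and 0.135 to 0.504 FPKM at the Maturation Stage). The list of developmental and slow isoforms had 0 of 17 higher and 10 lower (58.8% against 18.6% of all genes, median -2.59). The number lower was 10 when any 1 library was left out.

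Adult fast isoforms lay higher at the Maturation Stage, and most of them missed the threshold, with P1 to P4 far apart. Myh4, the myosin heavy chain of the fastest fibers, was at 178, 5007, 1005 and 2888 FPKM at the Proliferation Stage and 9959.9, 8742, 8151 and 6741 FPKM at the Maturation Stage. The stages did not overlap, and the log2 fold change of 2.71 ± 0.95 (adjusted p = 0.0594) was not called. Called higher were 4 of 15: the light chain Myl1 at 486, 3891, 1856 and 2577 FPKM at the Proliferation Stage and 8774, 6869, 7980.4 and 7964 FPKM at the Maturation Stage (log2 fold change 2.18 ± 0.67, adjusted p = 0.0408), the tropomyosin Tpm1 (log2 fold change 2.29 ± 0.72, adjusted p = 0.0419), the fast Z-disc protein Actn3 (log2 fold change 2.28 ± 0.74, adjusted p = 0.0476) and the calcium buffer Pvalb. Parvalbumin (Pvalb) was the most widely spread of these 4, at 74.2, 8194, 976 and 3632 FPKM at the Proliferation Stage and 26518, 15244, 19490.3 and 14871 FPKM at the Maturation Stage (log2 fold change 3.93 ± 1.28, adjusted p = 0.0477). The lowest Maturation Stage library exceeded the highest of the Proliferation Stage in each of these genes. The fast troponins Tnni2 and Tnnt3 did not overlap either and were not called (adjusted p = 0.0678 and 0.0737). Myh1 and Myh2, of intermediate fast fibers, overlapped, at 125 to 1339 FPKM at the Proliferation Stage and 231 to 1366 FPKM at the Maturation Stage for Myh1 and 0.660 to 89.5 FPKM at the Proliferation Stage and 7.55 to 77.8 FPKM at the Maturation Stage for Myh2. Tnnc2, the fast calcium-binding troponin, was listed at 0 to 1.73 FPKM at the Proliferation Stage and 0 to 0.491 FPKM at the Maturation Stage, below the filter. Tnni2 and Tnnt3, its partners in the same complex, were at 210.1 FPKM or more in every library, so the values listed for Tnnc2 are unlikely to be its level in muscle, and why they are low was not tested. The share of the list called higher was 26.7%, against 8.80% of all genes. The list summed to 7702, 80474, 30822 and 51168 FPKM at the Proliferation Stage and 142814, 117744, 121405 and 117326 FPKM at the Maturation Stage. The number of members called higher was 12 without P2, 9 without P1, 1 without P4 and 0 without P3, M1, M2, M3 or M4. The median of 2.28 stayed above 0 with equal FPKM totals (1.45) and with quantile normalization, which called 0 of them (1.10).

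**Figure D1:**
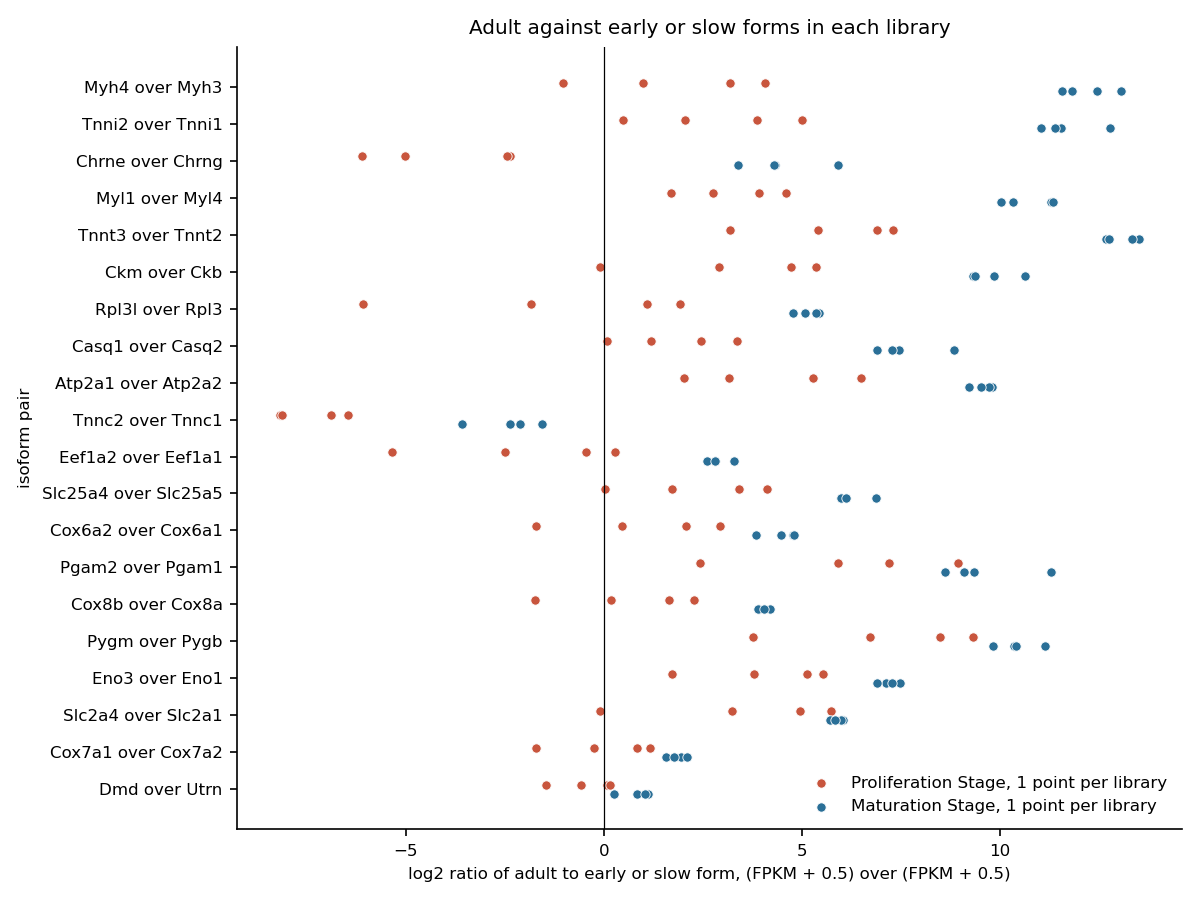
Log2 ratio of the adult to the early or slow form in each library for 20 of the 21 isoform pairs, from FPKM + 0.5, with Proliferation Stage and Maturation Stage libraries as separate points. In 18 pairs every Maturation Stage library lies above every Proliferation Stage library, and Pgam1/Pgam2 and Slc2a1/Slc2a4 overlap.

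Ratios within a library depend little on its scale where both forms are well above the 0.5 FPKM added to each, so 21 pairs of an early or widely expressed form and its adult muscle form were set against each other. In all 21 the mean log2 ratio of adult to early form was higher at the Maturation Stage, and in 18 the stages did not overlap, while 32.3% of single genes did not overlap. The pairs were chosen with earlier results of these data known, so these counts are a description and no test is given. For pairs with a low member the size of the difference depends on the constant added, and Chrne over Chrng moved from 8.46 to 10.83 when 0.1 was added. For Myh4 over Myh3 the log2 ratio was -1.04, 4.05, 0.98 and 3.18 at the Proliferation Stage and 13.06, 12.44, 11.81 and 11.57 at the Maturation Stage, a difference of 10.43. The creatine kinase pair, Ckm over the embryonic Ckb, ran from -0.11 to 5.34 at the Proliferation Stage and 9.31 to 10.63 at the Maturation Stage (difference 6.58). The calcium pumps, Atp2a1 over Atp2a2, ran from 2.01 to 6.50 at the Proliferation Stage and 9.21 to 9.80 at the Maturation Stage (difference 5.32). P1 had the lowest ratio of P1 to P4 in all 21 pairs. Pairs with housekeeping functions were among them. The ribosomal protein Rpl3 and its muscle form Rpl3l had ratios of -6.08, 1.91, -1.83 and 1.07 at the Proliferation Stage and 5.43, 5.34, 5.08 and 4.78 at the Maturation Stage. The elongation factor Eef1a1 and its muscle and nerve form Eef1a2 ran from -5.35 to 0.29 at the Proliferation Stage and 2.60 to 3.29 at the Maturation Stage. The adenine nucleotide carriers, Slc25a4 over Slc25a5, ran from 0.02 to 4.12 at the Proliferation Stage and 5.98 to 6.87 at the Maturation Stage. In 15 of 21 pairs the early form was called lower, against 18.6% of all genes, and in 2 the adult form was called higher (Myl1 and Casq1), a share close to the 8.80% of all genes. The pair of Tnnc1 and Tnnc2 rests on Tnnc1 alone.

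Of 15 genes of the neuromuscular junction 7 fell, the embryonic receptor subunit furthest, and the others were not called. The muscle acetylcholine receptor holds the gamma subunit before innervation and the epsilon subunit after it. Chrng, the gamma subunit, was at 52.0, 46.9, 57.9 and 29.6 FPKM at the Proliferation Stage and 0, 0, 0.0922 and 0.0472 FPKM at the Maturation Stage, with a log2 fold change of -6.42 ± 0.22 (adjusted p = 1.36e-06). Its Maturation Stage level rested on 2 recovered fragments over the 4 libraries. Chrne, the epsilon subunit, was at 0.257, 8.66, 1.29 and 5.04 FPKM at the Proliferation Stage and 29.5, 4.71, 11.4 and 10.1 FPKM at the Maturation Stage, with overlapping stages (adjusted p = 0.0757). The shared subunits Chrna1 and Chrnd also fell. Chrna1 averaged 120.0 ± 34.1 FPKM at the Proliferation Stage and 4.85 ± 1.18 FPKM at the Maturation Stage (SD, n = 4), with a log2 fold change of -4.47 ± 0.26 (adjusted p = 2.65e-05), and Chrnd had one of -4.00 ± 0.29 (adjusted p = 6.35e-05). The receptor kinase Musk (log2 fold change -1.30 ± 0.25, adjusted p = 0.00612), the scaffold Rapsn (log2 fold change -1.09 ± 0.21, adjusted p = 0.00711) and Runx1 (log2 fold change -2.41 ± 0.31, adjusted p = 0.00101) were lower. Among those not called were Dok7, Lrp4 and acetylcholinesterase (Ache), with log2 fold changes of 0.15, -0.08 and 0.57. The share that fell was 46.7%, against 18.6% of all genes, 0 rose, and the number that fell was 7 when any 1 library was left out.

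Promoters of Myog and of Chrna1 are shown because both genes fell steeply and because the myogenic regulators bind the E-box, CANNTG, a motif that reads the same on both strands. The 150 bases before the RefSeq start (GRCm38.p6) run 5′ to 3′ on the gene's strand, with E-boxes in capitals. The Myog stretch is chr1:134289854-134290003 on the plus strand and holds 2 E-boxes, and the Chrna1 stretch is chr2:73580339-73580488 on the minus strand and holds 3.
Myog: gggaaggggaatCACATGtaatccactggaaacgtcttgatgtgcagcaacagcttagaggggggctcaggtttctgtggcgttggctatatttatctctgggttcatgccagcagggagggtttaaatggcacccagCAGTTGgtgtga
Chrna1: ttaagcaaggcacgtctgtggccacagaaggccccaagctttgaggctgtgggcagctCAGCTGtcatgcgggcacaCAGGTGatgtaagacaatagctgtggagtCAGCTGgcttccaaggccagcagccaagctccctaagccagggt
In the 250 bases before the start, searched on both strands, 10 of 10 promoters found for the neuromuscular junction list held an E-box, with a mean of 2.1 matches, against 66.0% of 27025 promoters with a mean of 1.15. The shares were 14 of 16 (87.5%) for developmental and slow isoforms, 11 of 16 (68.8%) for fusion genes, 8 of 11 (72.7%) for adult fast isoforms and 3 of 9 (33.3%) for the myogenic regulators. A match describes these letters only, and genes without an entry in the promoter table were not searched.

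Several genes of calcium handling in adult fast fibers rose, and the slow or cardiac forms of the store and the pump fell. Calsequestrin 1 (Casq1), the calcium store of fast fibers, was at 174, 1501, 722 and 1079.8 FPKM at the Proliferation Stage and 3770.1, 2505, 3251 and 2569.7 FPKM at the Maturation Stage (log2 fold change 2.15 ± 0.66, adjusted p = 0.0396). Casq2, its cardiac and slow form, was at 165, 146, 318 and 198 FPKM at the Proliferation Stage and 7.84, 20.6, 18.2 and 16.1 FPKM at the Maturation Stage (log2 fold change -3.69 ± 0.35, adjusted p = 0.000185). The pair moved in opposite directions. Triadin (Trdn), which anchors calsequestrin at the release channel, rose (log2 fold change 2.17 ± 0.68, adjusted p = 0.0422), as did the junctophilins Jph1 (log2 fold change 1.51 ± 0.47, adjusted p = 0.0413) and Jph2 (log2 fold change 1.42 ± 0.45, adjusted p = 0.0451), which tie the sarcoplasmic reticulum to the surface membrane. The slow and cardiac pump Atp2a2 (log2 fold change -3.01 ± 0.30, adjusted p = 0.000232) fell. The release channel Ryr1 did not overlap between stages, at 14.6 to 113 against 141 to 207 FPKM, and was not called (adjusted p = 0.0591). Of 27 genes of excitation-contraction coupling 9 rose and 3 fell (8.80% and 18.6% of all genes), and the list summed to 1462 to 9699 FPKM at the Proliferation Stage and 13569 to 17879 FPKM at the Maturation Stage. The number called higher was 3 with equal FPKM totals and 19 without P2, 1 without M2 or M4 and 0 without P3, M1 or M3, and Casq2 and Atp2a2 kept their calls when any 1 library was left out.

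Few scaffold proteins of the sarcomere were called. Titin (Ttn), the spring that spans each sarcomere end to middle, was at 7.43, 32.4, 22.0 and 40.2 FPKM at the Proliferation Stage and 78.7, 65.1, 57.1 and 54.8 FPKM at the Maturation Stage (log2 fold change 1.53 ± 0.46, adjusted p = 0.0366), and the M-band protein Myom2 rose with it (log2 fold change 1.27 ± 0.38, adjusted p = 0.0356). Myom3, Csrp3 and Myoz2, which slow and newly formed fibers express more, fell. Csrp3, a stretch sensor at the Z-disc, was at 21.9, 26.7, 89.3 and 81.3 FPKM at the Proliferation Stage and 0.434, 7.05, 6.61 and 4.85 FPKM at the Maturation Stage (log2 fold change -3.51 ± 0.72, adjusted p = 0.00895). Of 26 members 2 rose and 3 fell (7.69% and 11.5%, near or below the 8.80% and 18.6% of all genes). The number called higher was 10 without P2, 7 without P1, 4 without P4 and 0 without P3, M1, M2, M3 or M4, and the median of 0.66 turned to -0.15 with equal FPKM totals. In the dystrophin complex 2 of 19 rose and 1 fell (Sntb1, -1.88), and the count of those that rose was 4 without P2, 1 without P4 and 0 without P3, M1, M2, M3 or M4. The shares were 10.5% higher and 5.26% lower, near or below those of all genes. The median of 0.25 in the dystrophin complex turned to -0.35 with equal totals, where 0 rose and 6 fell.

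**Figure D2:**
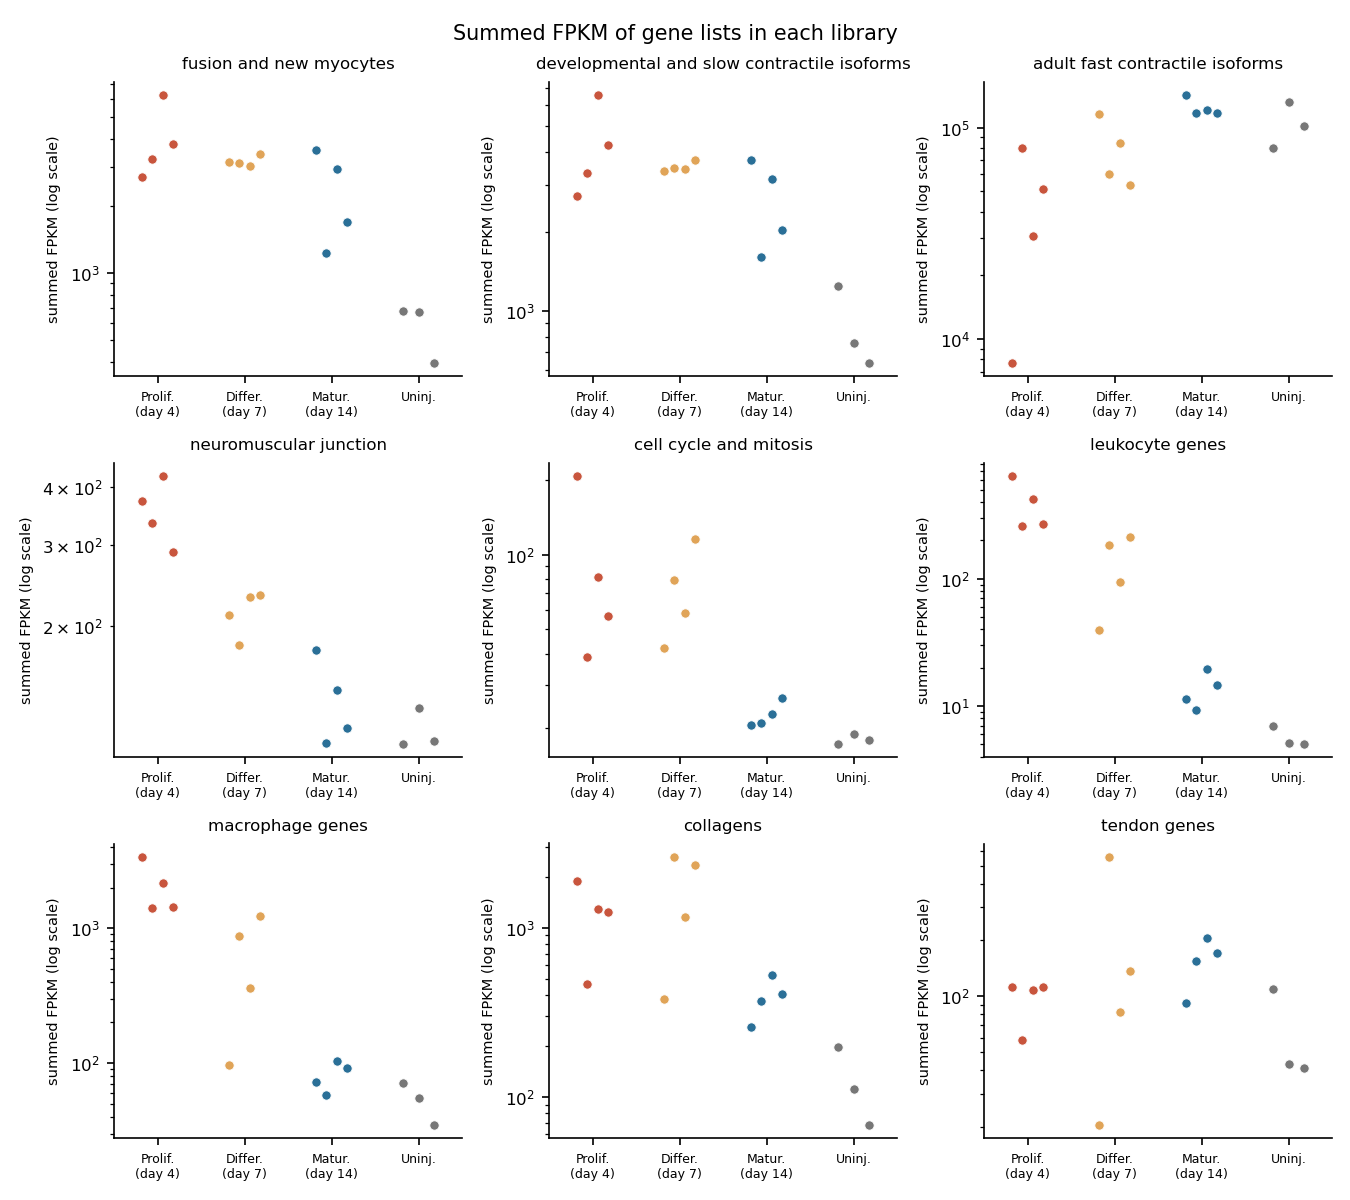
Summed FPKM of 9 gene lists in each library on a log10 axis, with 1 point per library of the Proliferation Stage (P1 to P4), the Differentiation Stage, the Maturation Stage and uninjected muscle. Adult fast isoforms sum to 7702 in P1 and at least 117326 in every Maturation Stage library, and leukocyte genes sum to at least 259 in every Proliferation Stage library and at most 19.6 in every Maturation Stage library.

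Fuel genes of the adult fiber lay higher at the Maturation Stage, with calls for a minority. Of 23 glycolytic genes 5 rose and 2 fell (21.7% and 8.7%, against 8.80% and 18.6% of all genes). Pyruvate kinase (Pkm), the last step of glycolysis, was at 184, 783, 294 and 495 FPKM at the Proliferation Stage and 1322, 1156, 1226 and 1212 FPKM at the Maturation Stage (log2 fold change 1.69 ± 0.47, adjusted p = 0.0288), and the lactate exporter Slc16a3 at 10.9, 82.1, 19.6 and 49.1 FPKM at the Proliferation Stage and 135, 117, 125 and 126 FPKM at the Maturation Stage (log2 fold change 2.02 ± 0.54, adjusted p = 0.026). Both stages were apart in each. The enzymes that fell were the forms other tissues use, Hk1 (log2 fold change -1.27 ± 0.20, adjusted p = 0.00273) and Eno1 (log2 fold change -1.35 ± 0.27, adjusted p = 0.00792). Gapdh, an abundant glycolytic enzyme of muscle, was listed at 2.14, 52.7, 3.37 and 2.66 FPKM at the Proliferation Stage and 78.4, 5.78, 248 and 6.17 FPKM at the Maturation Stage. These values are far below those of Pkm and scatter within each stage, so they are unlikely to be its expression, and the cause was not tested. Glycogen and creatine genes had 6 of 23 higher and 3 lower (26.1% and 13.0%). In both lists the share that fell was below the 18.6% of all genes. The glycogen-targeting subunit Ppp1r3c was at 3.88, 242, 24.0 and 127 FPKM at the Proliferation Stage and 651, 447, 672 and 356 FPKM at the Maturation Stage (log2 fold change 3.59 ± 1.08, adjusted p = 0.037). Subunits of phosphorylase kinase, Phka1 (log2 fold change 2.50 ± 0.80, adjusted p = 0.045), Phkb (log2 fold change 1.90 ± 0.49, adjusted p = 0.0231) and Phkg1 (log2 fold change 2.72 ± 0.86, adjusted p = 0.0431), rose. Embryonic creatine kinase (Ckb) was at 128, 73.7, 90.5 and 59.4 FPKM at the Proliferation Stage and 2.40, 5.75, 3.05 and 5.36 FPKM at the Maturation Stage (log2 fold change -4.27 ± 0.32, adjusted p = 6.59e-05), and Gatm, the first enzyme of creatine synthesis, at 47.6, 29.1, 61.7 and 31.4 FPKM at the Proliferation Stage and 3.48, 1.93, 1.92 and 1.31 FPKM at the Maturation Stage (log2 fold change -4.01 ± 0.30, adjusted p = 6.59e-05). The numbers called higher were 14 without P2, 1 without M3 and 0 without P3, M1, M2 or M4 for glycolysis, and 14 without P2, 1 without M4 and 0 without P3, M1, M2 or M3 for glycogen and creatine, and Hk1, Eno1, Ckb and Gatm kept their calls when any 1 library was left out.

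The mitochondrial lists had medians above 0, and most of their members missed the threshold. In the list of the pyruvate entry and tricarboxylic acid cycle 6 of 26 rose (23.1% against 8.80% of all genes) and 0 fell. Among those that rose were Idh3b (log2 fold change 1.66 ± 0.54, adjusted p = 0.0487), Sucla2 (log2 fold change 1.53 ± 0.49, adjusted p = 0.046) and the pyruvate carrier Mpc1 (log2 fold change 1.48 ± 0.45, adjusted p = 0.0385). Nuclear genes of respiratory complex I had 1 of 37 higher (2.70%, below the share of all genes) with a median of 1.05. Their sums overlapped, at 1118 to 5612 FPKM at the Proliferation Stage and 4883 to 6714 FPKM at the Maturation Stage. Those of complexes III to V had 0 of 38 higher, 2 lower and a median of 1.03, and their sums overlapped too (2772 to 12688 against 10804 to 14216 FPKM). Of 15 mitochondrially encoded genes 3 rose. The ribosomal RNA mt-Rnr2 was at 79.7, 823, 178 and 450.1 FPKM at the Proliferation Stage and 1879.6, 1369, 1910.4 and 1899.9 FPKM at the Maturation Stage (log2 fold change 2.70 ± 0.67, adjusted p = 0.0194). With equal FPKM totals 0 members of the cycle rose and 1 fell (median 0.37, from 1.19). The medians were then 0.25 for complex I, with 0 higher and 0 lower, and 0.21 for complexes III to V, with 0 higher and 3 lower. Leaving out P2 raised the counts called higher at the deposited scale. Numbers called higher were 19 without P2 and 0 without P3, M1, M2, M3 or M4 for the cycle, 35 without P2 and 0 without P3, P4, M1, M2, M3 or M4 for complex I, 27 without P2 for complexes III to V, and 12 without P2, 1 without M1, M3 or M4 and 0 without P3 for the mitochondrial genome.

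Of the branched-chain amino acid list 7 of 18 rose (38.9% against 8.80% of all genes). Acadsb was at 3.52, 9.53, 5.31 and 8.51 FPKM at the Proliferation Stage and 15.5, 14.5, 15.7 and 12.5 FPKM at the Maturation Stage (log2 fold change 1.15 ± 0.28, adjusted p = 0.0183), and Aldh6a1 (log2 fold change 1.48 ± 0.44, adjusted p = 0.0371) and the regulatory kinase Bckdk (log2 fold change 1.30 ± 0.42, adjusted p = 0.0465) rose too. Bcat1, the cytosolic aminotransferase that dividing cells express, fell (log2 fold change -1.42 ± 0.37, adjusted p = 0.0238). In fatty acid uptake and oxidation 4 of 28 rose, including the uncoupling protein Ucp3 at 1.85, 54.9, 13.2 and 38.5 FPKM at the Proliferation Stage and 174, 99.6, 114 and 64.1 FPKM at the Maturation Stage (log2 fold change 2.71 ± 0.87, adjusted p = 0.0453), and 1 fell (Cpt1a, log2 fold change -1.06 ± 0.31, adjusted p = 0.0348), the liver form of the entry enzyme. The fatty acid shares were 14.3% higher and 3.57% lower, against 8.80% and 18.6% of all genes. With equal FPKM totals 0 of the branched-chain list rose and 1 fell (median 0.10, from 0.86). Metabolic regulators had 6 of 19 higher (31.6% against 8.80% of all genes) and 0 lower. The nuclear receptor Nr4a1, induced by contraction, was at 7.27, 75.6, 15.4 and 32.7 FPKM at the Proliferation Stage and 119, 121, 134 and 123 FPKM at the Maturation Stage (log2 fold change 2.40 ± 0.59, adjusted p = 0.019). The coactivator Ppargc1a was at 1.26 to 5.11 FPKM at the Proliferation Stage and 4.70 to 6.46 FPKM at the Maturation Stage and not called (adjusted p = 0.13). The medians of the fatty acid and regulator lists, 0.79 and 0.69, turned to -0.02 and -0.08 with equal FPKM totals, where 1 and 1 rose. Numbers called higher were 17 without P2, 3 without M1 or M3, 1 without M2 or M4 and 0 without P3 for branched-chain amino acids, 16 without P2, 1 without P3, M1, M2 or M3 and 0 without M4 for fatty acids and 10 without P2, 3 without P4 or M4, 2 without M2, 1 without M1 or M3 and 0 without P3 for the regulators. Bcat1 lost the call without P1, P3, P4, M1 or M3 and Cpt1a lost the call without P1, P3, P4, M1, M2, M3 or M4.

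In the list of one-carbon, serine and nucleotide supply 0 of 18 rose and 5 fell (27.8% against 18.6% of all genes), and the others were not called. Phgdh, the first enzyme of serine synthesis, was at 14.1, 3.19, 6.11 and 3.47 FPKM at the Proliferation Stage and 0.466, 0.583, 0.772 and 0.474 FPKM at the Maturation Stage (log2 fold change -2.52 ± 0.40, adjusted p = 0.00272). Psat1 (log2 fold change -2.37 ± 0.31, adjusted p = 0.00106), Asns (log2 fold change -2.69 ± 0.34, adjusted p = 0.000878) and the leucine transporter Slc7a5 (log2 fold change -3.04 ± 0.53, adjusted p = 0.00421) fell as well. The number that fell was 9 without P2. Polyamine genes moved both ways, with 4 of 11 higher and 4 lower (36.4% each, against 8.80% and 18.6% of all genes). The decarboxylase Amd1 was at 9.39, 72.4, 10.8 and 34.7 FPKM at the Proliferation Stage and 119.7, 259.6, 83.9 and 117 FPKM at the Maturation Stage (log2 fold change 2.52 ± 0.64, adjusted p = 0.0213), and spermine oxidase (Smox) at 7.28, 57.3, 7.86 and 28.3 FPKM at the Proliferation Stage and 106, 153, 85.4 and 99.9 FPKM at the Maturation Stage (log2 fold change 2.58 ± 0.60, adjusted p = 0.0154). Spermidine synthase (Srm, log2 fold change -1.62 ± 0.38, adjusted p = 0.0166) and the acetyltransferase Sat1 (log2 fold change -1.93 ± 0.24, adjusted p = 0.000838) fell. Amd2 is a near copy of Amd1, and reads of the pair may be split between them. The count of polyamine genes called higher was 1 without P3, that called lower was 2 without P3, and the median of 0.47 turned to -0.36 with equal FPKM totals.

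Genes of cell division fell from levels that differed widely among P1 to P4. Cyclin B2 (Ccnb2), which drives entry into mitosis, was at 17.2, 0.921, 3.76 and 3.06 FPKM at the Proliferation Stage and 0, 0, 0 and 0.385 FPKM at the Maturation Stage (log2 fold change -2.94 ± 0.64, adjusted p = 0.0119). P1 held several times the level of the other libraries. The mitotic kinase Cdk1 was at 5.83, 0.536, 1.40 and 1.35 FPKM at the Proliferation Stage and 0, 0.147, 0.156 and 0.239 FPKM at the Maturation Stage (log2 fold change -1.80 ± 0.48, adjusted p = 0.0255), and topoisomerase Top2a at 9.69, 0.685, 2.43 and 1.53 FPKM at the Proliferation Stage and 0.193, 0, 0.341 and 0.218 FPKM at the Maturation Stage (log2 fold change -2.11 ± 0.57, adjusted p = 0.026). Mki67, the antigen Ki-67 of cycling cells, had a log2 fold change of -1.77 ± 0.57 (adjusted p = 0.0457). Of 26 cell cycle and mitosis genes 0 rose and 16 fell (61.5% against 18.6%, median -1.45). In DNA replication 1 of 25 rose (Rpa2, at 4.08 to 7.01 against 7.05 to 9.29 FPKM, with a log2 fold change of 0.72 that turned to -0.05 with equal FPKM totals) and 9 fell, with the ribonucleotide reductase subunit Rrm2 at 19.1, 4.64, 5.86 and 4.05 FPKM at the Proliferation Stage and 0.627, 0.784, 1.94 and 0.992 FPKM at the Maturation Stage (log2 fold change -2.28 ± 0.45, adjusted p = 0.00778). The replication shares were 4.0% higher and 36.0% lower, against 8.80% and 18.6% of all genes. Direction held for the medians of both lists under every scaling tried. The number that fell was 8 without M3 or M4, 7 without M1 and 5 without P3 or M2 for the cell cycle and 14 without P2, 5 without P1, 4 without M2 and 3 without P3, M1, M3 or M4 for replication. Ccnb2 and Rrm2 kept their calls when any 1 library was left out, Cdk1 lost the call without P3, M1, M2 or M3, Top2a lost the call without P3, M1, M2 or M4 and Mki67 lost the call without P1, P3, P4, M1, M2, M3 or M4.

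Promoters of Ccnb2, Cdk1 and Cdc20 are shown because genes of mitosis often carry CCAAT boxes close to the start. The 150 bases before the RefSeq start (GRCm38.p6) are printed 5′ to 3′ on the gene's strand, with CCAAT on either strand in capitals, so that ATTGG marks a box on the other strand. The stretches are chr9:70421555-70421704, chr10:69352913-69353062 and chr4:118437344-118437493, each on the minus strand, with 3, 2 and 2 boxes.
Ccnb2: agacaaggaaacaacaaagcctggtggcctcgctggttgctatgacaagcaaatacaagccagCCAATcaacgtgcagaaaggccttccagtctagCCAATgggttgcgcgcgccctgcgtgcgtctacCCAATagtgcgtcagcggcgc
Cdk1: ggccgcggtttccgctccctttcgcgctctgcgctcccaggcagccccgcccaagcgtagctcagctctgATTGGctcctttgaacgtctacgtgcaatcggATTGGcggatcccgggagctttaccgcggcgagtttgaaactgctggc
Cdc20: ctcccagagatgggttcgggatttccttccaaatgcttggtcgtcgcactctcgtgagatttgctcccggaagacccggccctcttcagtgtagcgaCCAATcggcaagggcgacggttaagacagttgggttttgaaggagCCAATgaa
Cdc20, the activator of the mitotic ubiquitin ligase, was at 17.3, 1.23, 4.19 and 2.05 FPKM at the Proliferation Stage and 0.620, 0.388, 1.44 and 0.315 FPKM at the Maturation Stage (log2 fold change -1.97 ± 0.65, adjusted p = 0.0498). In the 250 bases before the start, 14 of 19 promoters found for the cell cycle list (73.7%) and 15 of 21 for DNA replication (71.4%) held CCAAT on either strand, against 34.5% of 27025 promoters. The motif TTTGAA, part of the cell cycle homology element, was in 7 of 19 (36.8%) and 2 of 21 (9.52%), against 16.3% of all. Cdc20 lost the call without P1, P3, P4, M1, M2, M3 or M4.

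Macrophage genes had the lowest median of the 54 lists. Cathepsin S (Ctss), a lysosomal protease of antigen-presenting cells, was at 429.6, 200.6, 299 and 194 FPKM at the Proliferation Stage and 1.71, 1.60, 6.22 and 4.63 FPKM at the Maturation Stage (log2 fold change -6.23 ± 0.43, adjusted p = 4.70e-05). The complement subunit C1qa was at 356, 151, 251 and 171 FPKM at the Proliferation Stage and 2.79, 0.696, 9.60 and 5.66 FPKM at the Maturation Stage (log2 fold change -5.79 ± 0.60, adjusted p = 0.000278) and lysozyme (Lyz2) at 1397, 574, 816 and 576 FPKM at the Proliferation Stage and 12.8, 11.01, 26.2 and 22.4 FPKM at the Maturation Stage (log2 fold change -5.49 ± 0.39, adjusted p = 5.65e-05). All 4 Proliferation Stage libraries were far above all 4 Maturation Stage libraries for each, and P1 was the highest. The pore protein Mpeg1 (log2 fold change -5.65 ± 0.43, adjusted p = 6.59e-05), C1qb (log2 fold change -5.62 ± 0.45, adjusted p = 7.62e-05), the receptor Csf1r (log2 fold change -4.44 ± 0.31, adjusted p = 4.79e-05) and Adgre1, the F4/80 antigen (log2 fold change -4.42 ± 0.39, adjusted p = 0.00012), fell alike. Fcgr1 was at 5.99 to 21.5 FPKM at the Proliferation Stage and listed at 0 in all 4 Maturation Stage libraries. Of 24 macrophage genes 22 fell (91.7% against 18.6%, median -4.18). The other 2 were not called, among them Cd163, at 1.26 to 3.005 against 0.359 to 1.46 FPKM. The list summed to 3377, 1400.4, 2164 and 1439.5 FPKM at the Proliferation Stage and 73.0, 58.4, 103 and 92.1 FPKM at the Maturation Stage, and the number lower was between 21 and 22 when any 1 library was left out.

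Genes of macrophages that handle lipid and debris were lower too, 18 of 21 (85.7% against 18.6% of all genes). Osteopontin (Spp1) was at 368, 14.2, 56.9 and 40.7 FPKM at the Proliferation Stage and 0.352, 0.440, 0.699 and 1.91 FPKM at the Maturation Stage (log2 fold change -5.60 ± 0.83, adjusted p = 0.00199), with most of it in P1. Apolipoprotein E (Apoe) was at 1851, 855, 1638 and 1063 FPKM at the Proliferation Stage and 34.4, 27.4, 63.0 and 39.6 FPKM at the Maturation Stage (log2 fold change -5.02 ± 0.37, adjusted p = 6.35e-05) and galectin 3 (Lgals3) at 213, 124, 144 and 96.3 FPKM at the Proliferation Stage and 2.18, 0.390, 7.23 and 3.70 FPKM at the Maturation Stage (log2 fold change -5.55 ± 0.58, adjusted p = 0.000299). Gpnmb (log2 fold change -4.94 ± 0.46, adjusted p = 0.000148) and the lipid receptor Trem2 (log2 fold change -4.25 ± 0.34, adjusted p = 7.32e-05) fell as well. All 15 of 15 leukocyte genes that passed the filter fell (median -3.86), among them Ptprc, the CD45 antigen itself, at 4.94, 1.34, 4.02 and 1.89 FPKM at the Proliferation Stage and 0.0316, 0, 0.210 and 0.0536 FPKM at the Maturation Stage (log2 fold change -2.50 ± 0.35, adjusted p = 0.00145). The leukocyte list summed to 259 to 640.5 FPKM at the Proliferation Stage and 9.33 to 19.6 FPKM at the Maturation Stage. All 15 calls stood when any 1 library was left out.

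Of 13 dendritic cell and MHC class II genes that passed the filter 11 fell (84.6% against 18.6% of all genes). The invariant chain Cd74 was at 328, 394, 467 and 310.3 FPKM at the Proliferation Stage and 21.4, 18.6, 46.9 and 34.8 FPKM at the Maturation Stage (log2 fold change -3.68 ± 0.33, adjusted p = 0.000127), and H2-Ab1 at 88.6, 108, 128 and 89.9 FPKM at the Proliferation Stage and 4.74, 4.23, 14.5 and 11.3 FPKM at the Maturation Stage (log2 fold change -3.66 ± 0.38, adjusted p = 0.000289). P3 was the highest library for both, not P1 as for the macrophage genes above. Lymphocyte genes were scarce. Of 18 listed, 7 passed the filter and 4 fell (57.1% against 18.6% of all genes). Sums of the list overlapped, at 17.9 to 30.5 FPKM at the Proliferation Stage and 7.88 to 31.9 FPKM at the Maturation Stage. The T cell genes Cd3e and Cd3g and the B cell gene Cd79a were below the filter. Of 14 neutrophil genes 2 passed, with 1 lower (Csf3r, log2 fold change -2.72 ± 0.40, adjusted p = 0.00203), and S100a8 and S100a9 did not reach 2 FPKM in any library. The neutrophil count was 2 without P2 or M2.

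Signals of inflammation were lower as well. All 16 of 16 interferon response genes that passed the filter fell (median -2.32). Isg15 was at 25.5, 15.5, 52.4 and 34.4 FPKM at the Proliferation Stage and 3.30, 1.03, 3.82 and 3.35 FPKM at the Maturation Stage (log2 fold change -3.24 ± 0.42, adjusted p = 0.00101), Irf7 at 10.4 to 37.8 against 0.307 to 2.54 FPKM and Bst2 at 67.6 to 173 against 10.4 to 24.998 FPKM. The chemokine Ccl8 was at 25.8, 11.7, 33.1 and 20.04 FPKM at the Proliferation Stage and 0, 0, 0.751 and 0 FPKM at the Maturation Stage (log2 fold change -5.11 ± 0.39, adjusted p = 6.59e-05), and Cxcl10 at 4.44 to 7.92 against 0 to 0.174 FPKM (log2 fold change -3.54 ± 0.22, adjusted p = 2.84e-05). In all 15 of 18 chemokines and cytokines fell (83.3% against 18.6% of all genes). Complement genes had 11 of 16 lower and 2 higher, the higher being the membrane inhibitors Cd55 (log2 fold change 1.33 ± 0.33, adjusted p = 0.0184) and Cd59a, at 2.001, 7.40, 5.08 and 6.54 FPKM at the Proliferation Stage and 24.3, 15.999, 13.99 and 29.0 FPKM at the Maturation Stage (log2 fold change 1.95 ± 0.38, adjusted p = 0.00688). The immunoproteasome subunits Psmb8 (log2 fold change -1.98 ± 0.27, adjusted p = 0.00116), Psmb9 (log2 fold change -1.48 ± 0.30, adjusted p = 0.00846) and Psmb10 (log2 fold change -1.10 ± 0.17, adjusted p = 0.00242) and the activator Psme2 (log2 fold change -1.09 ± 0.24, adjusted p = 0.0126) were the 4 of 31 proteasome genes that fell, and 0 rose. Lysosomal genes fell in 15 of 26 cases, for example Lgmn (log2 fold change -2.51 ± 0.34, adjusted p = 0.00118). Shares lower were 68.8% for complement and 57.7% for the lysosome, against 18.6% of all genes. The proteasome share of 12.9% was below it. Complement members called higher were 12.5%, against 8.80% of all genes. Cd59a, Isg15, Ccl8, Cxcl10, Psmb8, Psmb9, Psmb10, Psme2 and Lgmn kept their calls when any 1 library was left out and Cd55 lost the call without M1 or M3.

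**Figure D3:**
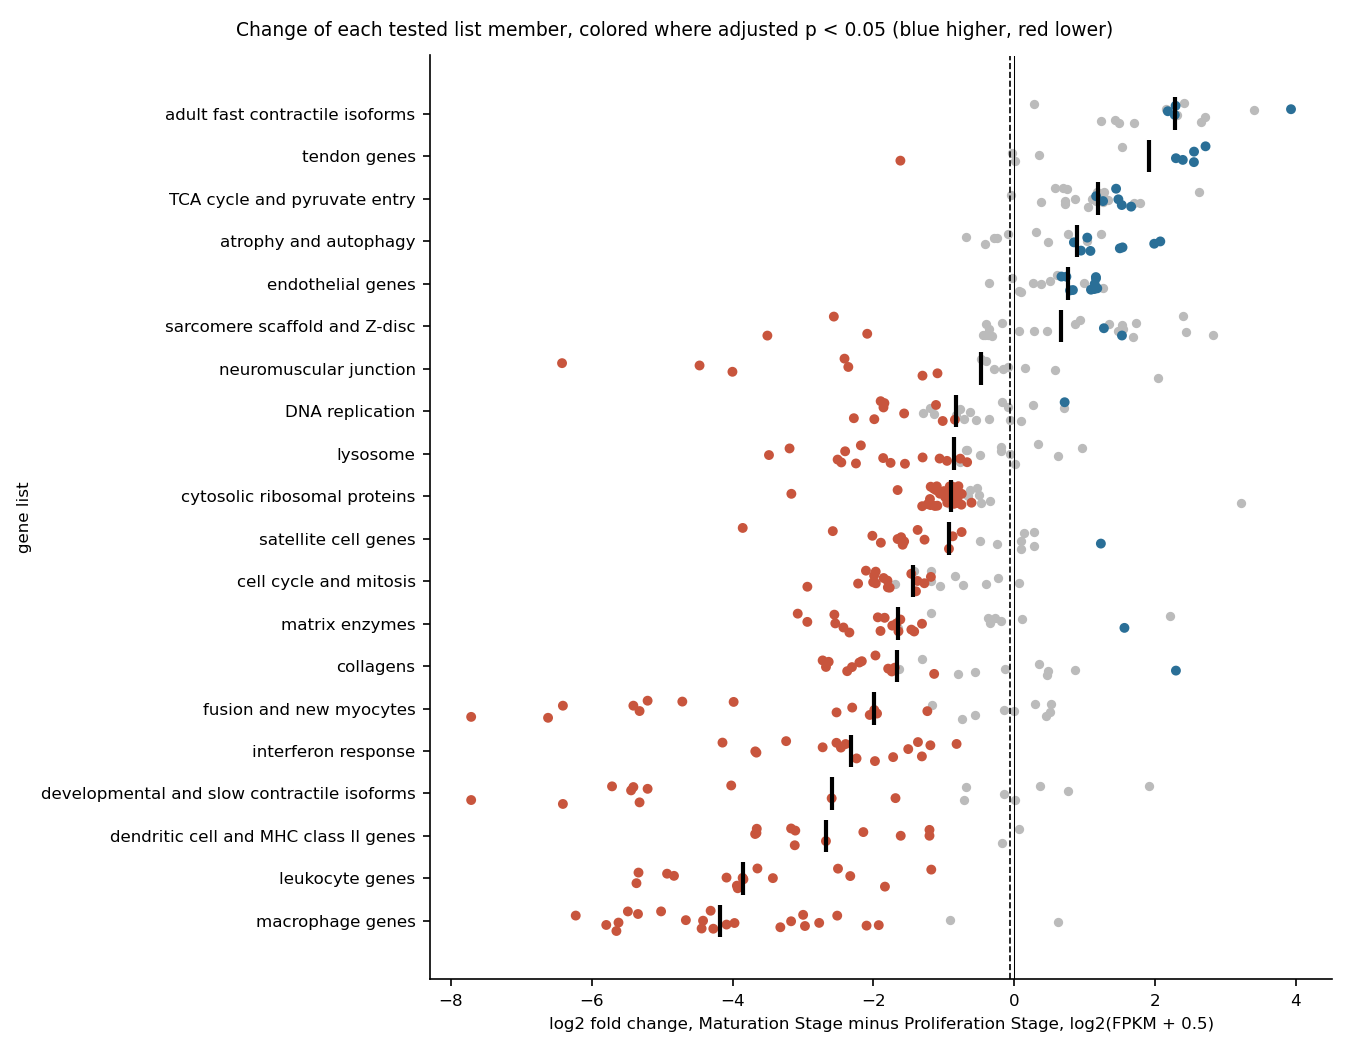
Log2 fold change (Maturation Stage minus Proliferation Stage, log2(FPKM + 0.5)) of every tested member of 20 gene lists, with members called at an adjusted p under 0.05 in color, the rest in gray, and a black bar at the median of the list. The dashed line is the median of all genes, -0.055, and with equal FPKM totals that median is -0.731, so that small medians such as those of the endothelial and sarcomere lists turn below 0.

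The temporary matrix was lower at the Maturation Stage. Periostin (Postn), a matrix protein of injured tissue, was at 138, 18.4, 123 and 117 FPKM at the Proliferation Stage and 2.46, 1.75, 8.73 and 4.31 FPKM at the Maturation Stage (log2 fold change -4.24 ± 0.67, adjusted p = 0.00272). Fibronectin (Fn1) was at 70.2, 12.3, 36.6 and 39.3 FPKM at the Proliferation Stage and 3.72, 4.46, 7.55 and 5.39 FPKM at the Maturation Stage (log2 fold change -2.60 ± 0.46, adjusted p = 0.00462), and the fibrillar collagen Col3a1 at 299, 114, 277 and 281 FPKM at the Proliferation Stage and 33.8, 35.2, 73.5 and 40.6 FPKM at the Maturation Stage (log2 fold change -2.37 ± 0.39, adjusted p = 0.00314). P2 was the lowest of the Proliferation Stage for each of them. Col1a1 overlapped, at 725, 128, 446 and 408 FPKM at the Proliferation Stage and 45.7, 112, 135 and 102 FPKM at the Maturation Stage, and was called (log2 fold change -1.97 ± 0.55, adjusted p = 0.0297). Biglycan (Bgn, log2 fold change -2.87 ± 0.39, adjusted p = 0.00129), the crosslinking enzymes Lox (log2 fold change -2.43 ± 0.53, adjusted p = 0.0115) and Loxl1 (log2 fold change -2.94 ± 0.38, adjusted p = 0.00104) and the protease Mmp14 (log2 fold change -2.54 ± 0.40, adjusted p = 0.00274) fell, as did the inhibitors Timp1 (log2 fold change -3.07 ± 0.56, adjusted p = 0.005) and Timp2 (log2 fold change -1.73 ± 0.20, adjusted p = 0.000545). Timp3 rose, at 1.63, 2.86, 1.72 and 4.68 FPKM at the Proliferation Stage and 7.90, 8.72, 8.95 and 8.12 FPKM at the Maturation Stage (log2 fold change 1.56 ± 0.27, adjusted p = 0.00435). Collagens had 12 of 22 lower and 1 higher, glycoproteins and proteoglycans 14 of 30 lower and 1 higher, and matrix enzymes 16 of 26 lower and 1 higher. The shares lower were 54.5%, 46.7% and 61.5%, against 18.6% of all genes. Each share higher was below the 8.80% of all genes. The number of glycoproteins lower was 23 without P2 and 9 without P3. Postn, Fn1, Col3a1, Bgn, Lox, Loxl1, Mmp14, Timp1, Timp2 and Timp3 kept their calls when any 1 library was left out and Col1a1 lost the call without P1, P3, P4, M1, M2 or M4.

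A set of tendon and muscle-end genes rose while most of the matrix fell. Fibromodulin (Fmod), which binds collagen fibrils in tendon, was at 10.5, 4.43, 5.71 and 5.93 FPKM at the Proliferation Stage and 25.8, 54.6, 56.7 and 48.4 FPKM at the Maturation Stage (log2 fold change 2.72 ± 0.32, adjusted p = 0.000555). Collagen XXII (Col22a1), found where fibers end on tendon, was at 0.331, 0.498, 1.13 and 1.65 FPKM at the Proliferation Stage and 6.05, 4.96, 7.92 and 5.10 FPKM at the Maturation Stage (log2 fold change 2.30 ± 0.31, adjusted p = 0.00122). Keratocan (Kera) was at 1.65, 0.387, 0.656 and 0.974 FPKM at the Proliferation Stage and 4.58, 5.72, 12.6 and 8.78 FPKM at the Maturation Stage (log2 fold change 2.55 ± 0.35, adjusted p = 0.0014), chondroadherin (Chad) at 0.173, 0.420, 0.891 and 0.294 FPKM at the Proliferation Stage and 1.38, 7.33, 5.03 and 9.46 FPKM at the Maturation Stage (log2 fold change 2.55 ± 0.48, adjusted p = 0.00627) and Cilp2 at 0.975, 0.736, 0.480 and 0.772 FPKM at the Proliferation Stage and 2.28, 7.05, 7.47 and 9.83 FPKM at the Maturation Stage (log2 fold change 2.39 ± 0.37, adjusted p = 0.00256). No Proliferation Stage library reached the lowest of the Maturation Stage in any of them. The tendon transcription factor Scx went down, at 19.7, 15.3, 18.6 and 11.5 FPKM at the Proliferation Stage and 3.47, 5.77, 5.55 and 4.99 FPKM at the Maturation Stage (log2 fold change -1.62 ± 0.22, adjusted p = 0.00129). Of 10 tendon genes 5 rose (50.0% against 8.80% of all genes), 1 fell and 4 were not called. The share that fell was below the 18.6% of all genes. The calls of the genes that rose or fell stood with equal FPKM totals and when any 1 library was left out. The summed level of the list, which also holds broadly expressed members, overlapped, at 58.0 to 112 FPKM at the Proliferation Stage and 91.6 to 205 FPKM at the Maturation Stage. In M1 Fmod, Kera, Chad and Cilp2 were the lowest of the stage, and Col22a1 was not. How much tendon each dissection held was not measured, and its part in the result was not tested.

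Genes of blood vessels lay higher. The endothelial cadherin Cdh5 was at 21.8, 14.6, 18.9 and 18.3 FPKM at the Proliferation Stage and 32.4, 41.2, 41.6 and 52.3 FPKM at the Maturation Stage (log2 fold change 1.16 ± 0.21, adjusted p = 0.00462), and Sox17 at 1.34, 1.92, 1.25 and 1.84 FPKM at the Proliferation Stage and 4.25, 4.55, 3.94 and 3.99 FPKM at the Maturation Stage (log2 fold change 1.18 ± 0.17, adjusted p = 0.00166). P1 to P4 were close to each other for both. Robo4 (log2 fold change 1.09 ± 0.14, adjusted p = 0.000903), Esam (log2 fold change 1.14 ± 0.20, adjusted p = 0.00462) and the tight junction protein Cldn5 (log2 fold change 1.14 ± 0.30, adjusted p = 0.0243) rose too. Of 20 endothelial genes 10 rose and 0 fell (50.0% against 8.80%), a count of 6 without P3 or M3. The median of 0.77 turned to -0.03 with equal FPKM totals, where 0 were called. In the smooth muscle and pericyte list 4 of 14 rose, with the pericyte gene Rgs5 at 26.7, 44.7, 44.1 and 48.9 FPKM at the Proliferation Stage and 94.2, 87.3, 89.8 and 105 FPKM at the Maturation Stage (log2 fold change 1.22 ± 0.24, adjusted p = 0.00698), and 1 fell. Acta2, smooth muscle actin, which new myotubes and myofibroblasts also express, was the gene that fell, at 301, 132, 223 and 132 FPKM at the Proliferation Stage and 16.6, 28.4, 49.8 and 35.4 FPKM at the Maturation Stage (log2 fold change -2.59 ± 0.40, adjusted p = 0.00228). In the smooth muscle list 28.6% rose and 7.14% fell, against 8.80% and 18.6% of all genes. The count that rose was 2 without P1, P3, M1 or M2 and 1 without M3 or M4, and the median of 0.27 turned to -0.55 with equal totals, where 0 rose and 4 fell. Fibro-adipogenic progenitor genes fell in 7 of 16 cases, Pdgfra at 1.55 to 3.84 against 0.723 to 1.45 FPKM (log2 fold change -1.16 ± 0.29, adjusted p = 0.0189), and that count was 4 without M2, 3 without M1 or M4 and 2 without P3. The fibro-adipogenic share lower was 43.8%, against 18.6% of all genes. Of 4 red cell genes 0 rose and 0 fell by limma, and of 9 Schwann cell genes 1 fell (11.1%).

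Ribosomal protein genes were mostly lower. Of 40 ribosomal protein genes 30 fell and 0 rose (75.0% against 18.6%), with a median of -0.90. Rpl3 was at 159, 79.7, 109.9 and 75.3 FPKM at the Proliferation Stage and 8.58, 9.13, 12.2 and 14.3 FPKM at the Maturation Stage (log2 fold change -3.17 ± 0.28, adjusted p = 0.000127). Other members moved less, such as Rpl14 at 182, 216, 226 and 171 FPKM at the Proliferation Stage and 89.9, 83.8, 101 and 91.2 FPKM at the Maturation Stage (log2 fold change -1.11 ± 0.22, adjusted p = 0.00828). P1 to P4 were alike for Rpl14, and the number lower was 19 without M1 or M3, 16 without M2 and 12 without P3. Eef1a1, the main elongation factor outside adult muscle, was at 1531, 751, 1369.7 and 859 FPKM at the Proliferation Stage and 178, 108, 199 and 179 FPKM at the Maturation Stage (log2 fold change -2.73 ± 0.37, adjusted p = 0.00117). Translation factors had 2 of 16 higher and 3 lower (18.8%, near the share of all genes), with a median of 0.08 that turned to -0.73 with equal FPKM totals. Genes of the endoplasmic reticulum stress response fell in 10 of 19 cases, Pdia3 at 128, 33.2, 69.7 and 51.1 FPKM at the Proliferation Stage and 15.7, 15.7, 24.5 and 15.1 FPKM at the Maturation Stage (log2 fold change -1.81 ± 0.38, adjusted p = 0.0098), and Herpud1 rose (log2 fold change 0.93 ± 0.27, adjusted p = 0.0326). The stress response share lower was 52.6%, against 18.6% of all genes. Ribosome biogenesis had 3 of 20 lower (15.0%, below the 18.6% of all genes). Numbers lower were 6 without M1 and 5 without P3 for the stress response and 1 without P3, M1 or M3 for ribosome biogenesis. Rpl3, Rpl14, Eef1a1 and Pdia3 kept their calls when any 1 library was left out and Herpud1 lost the call without P3, P4, M1, M2, M3 or M4.

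Of 18 atrophy and autophagy genes 8 rose and 0 fell (44.4% higher against 8.80%), while with equal FPKM totals 3 rose and 3 fell (median 0.10, from 0.90). The ubiquitin ligase Fbxo32 (atrogin-1) was at 1.97, 20.9, 4.57 and 19.01 FPKM at the Proliferation Stage and 40.9, 34.3, 39.8 and 27.9 FPKM at the Maturation Stage (log2 fold change 2.07 ± 0.63, adjusted p = 0.039), and Trim63 (MuRF1) at 13.5, 102, 23.0 and 59.3 FPKM at the Proliferation Stage and 194, 138, 202 and 91.3 FPKM at the Maturation Stage (log2 fold change 1.99 ± 0.59, adjusted p = 0.0356). Uninjected muscle averaged 73.0 ± 50.1 and 132 ± 71.7 FPKM (SD, n = 3). Bnip3, a mitophagy receptor, was at 7.59, 25.8, 13.8 and 23.5 FPKM at the Proliferation Stage and 48.1, 45.4, 46.8 and 43.7 FPKM at the Maturation Stage (log2 fold change 1.499 ± 0.35, adjusted p = 0.0148). The count that rose was 3 without P1, M3 or M4, 2 without M2, 1 without M1 and 0 without P3. Of 27 growth factors and imprinted genes 14 fell and 1 rose (51.9% and 3.7%, against 18.6% and 8.80% of all genes). The imprinted genes Mest (log2 fold change -3.51 ± 0.57, adjusted p = 0.00305), Igf2 (log2 fold change -2.31 ± 0.42, adjusted p = 0.00538) and Grb10 (log2 fold change -2.49 ± 0.26, adjusted p = 0.000332) fell. Tgfb1, a growth factor of scarring, averaged 14.6 ± 6.36 FPKM at the Proliferation Stage and 2.88 ± 1.08 FPKM at the Maturation Stage (SD, n = 4) and fell as well (log2 fold change -2.13 ± 0.33, adjusted p = 0.00231). Myostatin (Mstn), which limits muscle growth, was the gene that rose, at 0.777, 6.06, 1.66 and 3.56 FPKM at the Proliferation Stage and 13.7, 8.84, 4.26 and 7.76 FPKM at the Maturation Stage (log2 fold change 1.54 ± 0.51, adjusted p = 0.0495), with overlapping stages. Mest, Igf2, Grb10 and Tgfb1 kept their calls when any 1 library was left out, Mstn lost the call without P1, P3, P4, M1, M2 or M4 and Bnip3 lost the call without P3.

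Of 12 glucocorticoid and metallothionein genes 6 rose and 1 fell (50.0% and 8.33%, against 8.80% and 18.6% of all genes). Ddit4 was at 26.1, 58.7, 12.5 and 18.3 FPKM at the Proliferation Stage and 166, 98.6, 137 and 152 FPKM at the Maturation Stage (log2 fold change 2.45 ± 0.43, adjusted p = 0.00445), and the kinase Sgk1 at 14.9, 42.3, 10.2 and 31.4 FPKM at the Proliferation Stage and 102, 72.8, 89.0 and 64.3 FPKM at the Maturation Stage (log2 fold change 1.90 ± 0.42, adjusted p = 0.0123). Angptl4 fell (log2 fold change -1.91 ± 0.32, adjusted p = 0.00359). Clock genes had 4 of 16 higher, Tef for example (log2 fold change 1.04 ± 0.32, adjusted p = 0.0418), and their median of 0.49 turned to -0.15 with equal FPKM totals, where 0 rose. Of 13 immediate early genes 3 rose, Dusp1 at 6.17, 18.4, 10.2 and 22.1 FPKM at the Proliferation Stage and 45.0, 37.8, 58.5 and 51.3 FPKM at the Maturation Stage (log2 fold change 1.86 ± 0.37, adjusted p = 0.00752), and 2 fell, Junb at 39.9, 14.9, 24.3 and 19.8 FPKM at the Proliferation Stage and 5.54, 5.67, 4.50 and 6.40 FPKM at the Maturation Stage (log2 fold change -1.98 ± 0.28, adjusted p = 0.00147). The hour of death is not given in the sources used here and its part in these results was not tested. With equal FPKM totals 2 immediate early genes rose and 6 fell, and their median turned from 0.13 to -0.69. The number of them that fell was 4 without P2 and 1 without P1, P3, P4, M1, M2 or M4. Counts that rose were 3 without M2 or M3 and 2 without P3 or M1 for glucocorticoid genes, 1 without P1, M2 or M4 and 0 without P3, M1 or M3 for the clock and 1 without P3 for immediate early genes. Ddit4, Sgk1, Dusp1, Junb and Angptl4 kept their calls when any 1 library was left out.

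The largest rises among genes above 10 FPKM, without overlap, were in genes of which P2 and P4 held more than P1 and P3. Odf3l2 was at 0, 9.89, 0 and 1.19 FPKM at the Proliferation Stage and 57.6, 18.6, 19.7 and 14.3 FPKM at the Maturation Stage (log2 fold change 4.05 ± 0.91, adjusted p = 0.013) and the lipid droplet protein Plin4 at 0.103, 26.9, 2.48 and 19.2 FPKM at the Proliferation Stage and 111, 49.5, 68.2 and 33.1 FPKM at the Maturation Stage (log2 fold change 3.42 ± 1.08, adjusted p = 0.043). Klhl33 was at 0.380, 15.98, 1.48 and 11.1 FPKM at the Proliferation Stage and 63.7, 31.3, 52.9 and 36.1 FPKM at the Maturation Stage (log2 fold change 3.39 ± 0.84, adjusted p = 0.0198) and the arrestin-related Arrdc2 at 1.53, 42.3, 2.14 and 12.2 FPKM at the Proliferation Stage and 115, 52.0, 59.7 and 52.5 FPKM at the Maturation Stage (log2 fold change 3.18 ± 0.86, adjusted p = 0.0271). P1 was at or under 2 FPKM for all 4. Mettl21c, a muscle methyltransferase, had a log2 fold change of 3.16 ± 0.62 (adjusted p = 0.00744), Mlf1 of 3.43 ± 1.09 (adjusted p = 0.0444), B230312C02Rik of 3.81 ± 0.71 (adjusted p = 0.00568) and the processed pseudogene BC023105 of 4.05 ± 0.77 (adjusted p = 0.00651). Outside the lists and above 100 FPKM, Cib2 (log2 fold change 2.80 ± 0.76, adjusted p = 0.0265), Smtnl2 (log2 fold change 2.73 ± 0.80, adjusted p = 0.034), Mylk4 (log2 fold change 2.72 ± 0.74, adjusted p = 0.0277) and the transfer RNA gene mt-Te (log2 fold change 2.78 ± 0.90, adjusted p = 0.0468) rose most. Odf3l2, Mettl21c, B230312C02Rik and BC023105 kept their calls when any 1 library was left out, Plin4 and Arrdc2 lost their calls without P1, P3, M1, M2, M3 or M4, Klhl33 lost the call without P3 or M1 and Mlf1, Cib2, Smtnl2, Mylk4 and mt-Te lost their calls without P3, M1, M2, M3 or M4.

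Among genes above 100 FPKM outside the lists, the 5 largest falls were in 4 genes of the cytoskeleton and a pseudogene. The actin-binding peptide Tmsb10 was at 707, 481, 624 and 419 FPKM at the Proliferation Stage and 15.9, 10.2, 29.8 and 26.3 FPKM at the Maturation Stage (log2 fold change -4.81 ± 0.36, adjusted p = 6.59e-05), and the beta tubulin Tubb6 at 255, 202, 309.8 and 191 FPKM at the Proliferation Stage and 9.27, 9.21, 11.97 and 12.8 FPKM at the Maturation Stage (log2 fold change -4.39 ± 0.23, adjusted p = 2.11e-05). Tuba1a (log2 fold change -3.77 ± 0.35, adjusted p = 0.000161) and Tubb2a (log2 fold change -3.65 ± 0.27, adjusted p = 6.59e-05), 2 further tubulins, fell with them. All 4 Proliferation Stage libraries were high in each. The processed pseudogene Gm3788 (log2 fold change -4.41 ± 0.35, adjusted p = 7.62e-05) was the remaining member of the set. Tubulins are near copies of each other, and 26.2% of the exon bases of Tuba1a lie in another gene's exons. Tmsb10, Tubb6, Tuba1a, Tubb2a and Gm3788 kept their calls when any 1 library was left out.

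**Figure D4:**
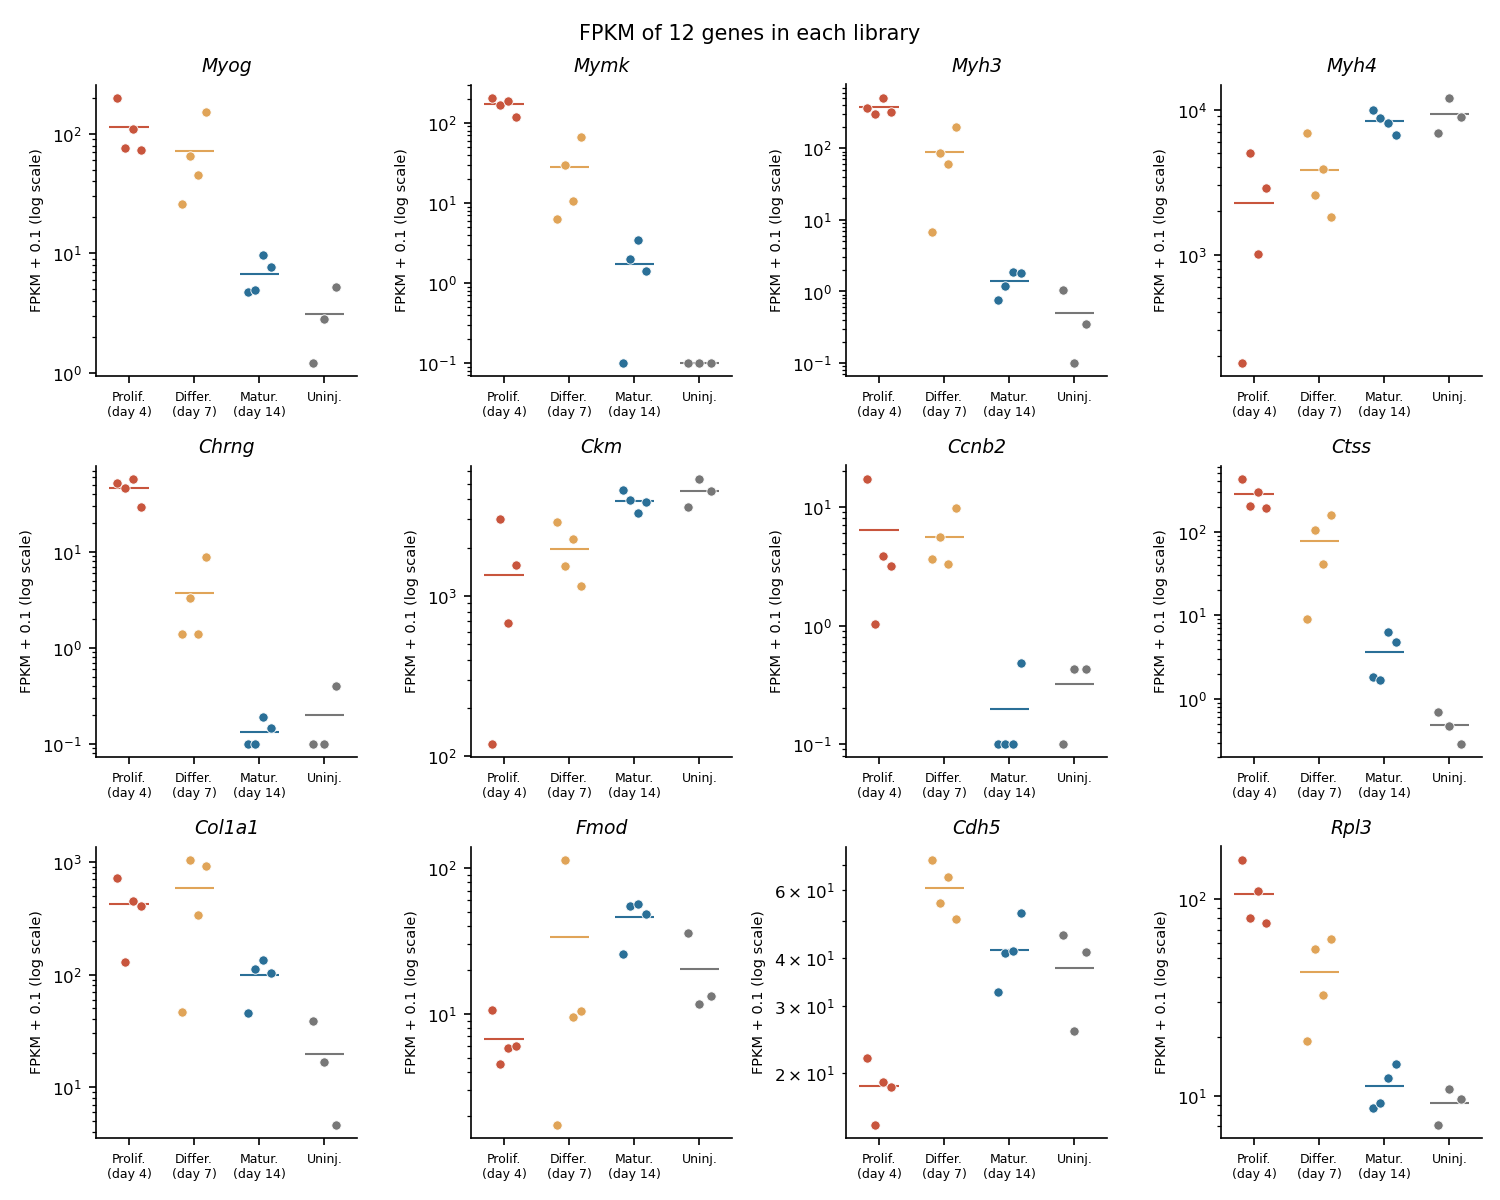
FPKM + 0.1 on a log10 axis of 12 genes in each library, with points for the Proliferation, Differentiation and Maturation Stages and uninjected muscle and a bar at each group's mean. Myog, Mymk, Myh3, Chrng, Ccnb2, Ctss and Rpl3 are lower in every Maturation Stage library than in any Proliferation Stage library, while Myh4, Ckm, Fmod and Cdh5 are higher and Col1a1 overlaps.

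Set between the stages, the Differentiation Stage mean lay between the Proliferation and Maturation Stage means for 899 of 1180 genes that rose (76.2%) and 2211 of 2501 that fell (88.4%). The median gene had covered 32.7% of its log2 change by day 7 among those that rose and 37.2% among those that fell. It lay beyond the Proliferation Stage mean for 204 and 254 genes and beyond the Maturation Stage mean for 77 and 36. The uninjected mean lay further out than the Maturation Stage for 504 genes that rose (42.7%) and 1665 that fell (66.6%). Myog, for example, had a mean of 72.0 ± 56.0 FPKM at the Differentiation Stage, 6.65 ± 2.33 at the Maturation Stage and 2.98 ± 2.03 in uninjected muscle. Cd74 stood at 197 ± 137, 30.4 ± 13.1 and 6.51 ± 2.07 FPKM, and Col1a1 at 585 ± 473, 98.6 ± 37.9 and 19.8 ± 17.1 FPKM. The mean of Fmod passed the uninjected mean, with 46.3 ± 14.2 FPKM at the Maturation Stage and 20.1 ± 13.4 FPKM in uninjected muscle. Single libraries overlapped, with 25.8 FPKM in M1 and 35.6 FPKM in an uninjected library. Differentiation Stage libraries were at 1.63, 114, 9.37 and 10.4 FPKM for this gene. These are descriptions of group means (SD, n = 4, 4 and 3), and no test was made of them. The genes counted were called because their Proliferation and Maturation Stage libraries differed. That choice by itself favors a Differentiation Stage mean between the means of those stages. It also bears on the counts for uninjected muscle, which are set against the Maturation Stage mean. Shares over all genes tested were not taken, so the counts cannot show whether the change ran steadily through day 7.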

How the data were processed

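RNA was sequenced from TA muscle as poly-A libraries (NEBNext Ultra kit, strand not stated). Fewer libraries than mice stated for the study were used here. The authors aligned the reads to mm10 and deposited FPKM per gene (fragments per kilobase of exon, scaled to library size), 1 table per group. The aligner was not given in the sources used here. Joined by gene identifier, the tables hold 15 libraries, whose 4 groups the labels give. Nothing in the labels says how libraries were batched.

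Genes that reached 0.5 FPKM in 3 or more libraries of 8 were tested with limma 3.58.1 in R 4.3.3 (trend and robust, statmod 1.5.0) on log2(FPKM + 0.5), two-sided, with Benjamini-Hochberg adjustment over all 13413 genes. FPKM multiplied by exon length (GENCODE M21) gave whole fragments within 0.01 for 90.5% to 95.0% of values under 50 fragments, from which depth was taken. The main fit was tested on simulated data, where it recovered 27% of log2 changes of 1 and 74% of log2 changes of 2, with 3 false calls. A gene that was not called may therefore still have changed. The simulation changed 100 genes at each size among 13413 and drew normal noise for each gene on its own. Differences that many genes of a library share, as among P1 to P4, were not simulated. The number of false calls in the real libraries cannot be read from it. Python 3.11.15, numpy 2.4.6, pandas 2.3.3 and matplotlib 3.10.9 were used. There were 21 alternative fits (pseudocount, filter, scaling, libraries, test, replicate block).

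The 54 lists, 21 pairs and their members were chosen with earlier results of these data known, and Antxr1 was taken out of the polyamine list after its values were seen. Named were marked members of the lists, both members of each pair, the 10 largest rises and falls without overlap above 10 FPKM, up to 4 called members with the largest change in each list and members called against the rest, and the 5 largest each way outside the lists above 100 FPKM. Some genes are not reported here. Bst2, Cd163, Cdc20, Esam, Fcgr1, Gapdh, Heyl, Jph1, Msc, Phka1, Phkb, Rapsn, Robo4, Rpl14, Tgfb1, Timp2, Ache, Dok7 and Lrp4 fall outside this rule and were named after their values were seen. The limma p-values set the difference between the stage means against the spread of these libraries within the stages, estimated in part from all genes. Promoters are from RefSeq (GRCm38.p6), 1 a gene.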

Additional observations from a re-analysis of the deposited data

Results flagged for a closer look

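In each stage the highest and the lowest of the 4 libraries were compared with their neighbors by Dixon's criterion for 4 samples (the gap as a share of the range, at the usual critical value) for the 87 genes given library by library. Of 174 groups 16 held a library that stood apart (9.20%), where chance gives about 1 in 20. P1 stood apart upward for Cdk1 (5.83 FPKM), Rrm2 (19.1 FPKM) and Spp1 (368 FPKM), and downward for Chodl (0.277 FPKM). P2 stood apart downward for Col3a1 (114 FPKM) and Postn (18.4 FPKM), and upward for Gapdh (52.7 FPKM) and Odf3l2 (9.89 FPKM). P3 was alone at the top for Tnni1 (282 FPKM).

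At the Maturation Stage M1 was alone at the top for Arrdc2 (115 FPKM) and Odf3l2 (57.6 FPKM), M3 for Ccl8 (0.751 FPKM), Col3a1 (73.5 FPKM) and Pdia3 (24.5 FPKM), and M4 for Ccnb2 (0.385 FPKM). M2 was alone at the bottom for mt-Rnr2 (1369 FPKM). For Ccl8 and Ccnb2 the other 3 libraries were listed at 0. What sets these libraries apart was not tested.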

How the results depend on the processing

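The count of genes called higher depended on processing more than the count called lower. Against 1180 higher, 525 were called with no filter on low values, 250 with equal FPKM totals, 362 with each library's own fragments in genes as denominator (an alternative chosen after seeing the data), 1990 with all 15 libraries in the fit, 416 with the unpaired test of the study's methods, and 259 to 2345 when any 1 library was left out. Against 2501 lower, 5062 were called with equal totals, 4589 with the own denominator, 678 with the unpaired test and 1364 to 3211 when any 1 library was left out. Pseudocounts of 0.1 and 1, a filter at 1 FPKM, median-of-ratios factors, quantile normalization, limma without trend and robust fitting and voom on recovered fragments kept both counts within 1.5 times. Of the genes named in the report, 65 were called higher and 106 lower. In all 8 fits that left out a library 21 and 97 kept their call, and with equal totals 43 and 106 did. Rpa2 changed sign with equal totals (-0.051). The medians of 11 lists changed sign with equal totals, 7 with the own denominator and 3 with quantile normalization.

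Subject numbers are shared between the stages, but the deviations of same-numbered libraries correlated at only -0.030 to 0.082, and not every library correlated best with its own number, so the numbers were not taken to pair the libraries. A replicate block gave 895 higher and 2099 lower. Depth limits the values of low genes most in the Maturation Stage libraries, which hold as few as 1479320 fragments.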

Other observations

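Members of 3 further lists were mostly not called at the deposited scale. Of 19 chaperones of myofibril assembly 0 rose and 2 fell, but 14 fell with equal FPKM totals (median -1.10, from -0.28). Of 15 cell cycle inhibitors 1 rose and 4 fell (8 with equal totals), and of 6 adipocyte genes 1 rose and 1 fell. Shares lower were 10.5%, 26.7% and 16.7% for the 3 lists, against 18.6% of all genes. By gene type, 41 of 232 tested lincRNAs rose and 27 fell, 28 of 212 antisense genes rose and 18 fell, and 61 of 750 processed pseudogenes rose and 79 fell, against 969 and 2315 of 11627 protein-coding genes. Strand of the libraries is not given in the sources used here, so reads of an antisense gene and its partner cannot be told apart.

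Of the genes tested, 122 were listed at 0 in all 4 Maturation Stage libraries, and 119 of these were called lower, while 4 were listed at 0 in all 4 Proliferation Stage libraries. Such genes passed the filter only through the other stage, so the direction of their change was set by the filter. Fragments in genes were 1479320 to 5544576 in M1 to M4 and 5198453 to 7209362 in P1 to P4. The part of depth in these counts was not tested. FPKM denominators did not follow the fragments in genes. The ratio of the denominator to those fragments was 1.09 to 1.91 in P1 to P4 and 0.884 to 0.953 in M1 to M4, and the sum of all FPKM was 168508 to 385621 against 431734 to 483921.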
